A study of Mus musculus with 8 samples.

Results

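The regions described here are 2868 stretches of accessible chromatin that were listed after 0.1 µM and after 1 µM hexavalent chromium but not after 0.5 µM. They were chosen by their presence in 3 deposited region lists, one per treated dose: regions of the lists that touched by at least 1 bp were merged, and a merged region off chromosome 15 was selected when it held regions of the 0.1 µM and 1 µM lists and none of the 0.5 µM list. They make up 2868 of 17890 merged regions off chromosome 15 (16.0%), out of 21051 merged regions on all chromosomes. The cells were Hepa-1c1c7, an established mouse hepatoma line, and accessibility was mapped by ATAC-seq, an assay that uses the Tn5 enzyme to cut and label the DNA left exposed between nucleosomes. Cells were exposed for 72 h to potassium chromate at 0.1, 0.5 or 1 µM or left untreated at 0 µM, with 2 libraries for each dose and 8 libraries in all. Each list is named in the descriptions of both libraries of its dose and names the untreated cells as its counterpart. Whether the 2 libraries were pooled is not stated. A region thus has no replicate error, and no dose could be set against the spread between libraries. The series title places the question in chromatin accessibility and CTCF sites of promoters after chromium.

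Hexavalent chromium enters cells as chromate and is reduced inside them, and the products bind DNA and proteins and cause oxidative stress and DNA damage. Open chromatin marks promoters, enhancers and sites bound by CTCF, a zinc finger protein that shapes chromatin loops together with cohesin. Promoters of widely expressed genes are often rich in CpG and in short sequences read by SP1, NFY and ETS proteins.

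The promoters below are picked examples of selected regions at gene starts and do not stand for all of them. The first 4 belong to the best-ranked selected regions that enclosed a whole listed promoter, ranked by the mean of their percentile ranks of score in the 0.1 µM and 1 µM lists. They serve Top2b, a DNA topoisomerase that passes one DNA duplex through another, Kbtbd8, a substrate adaptor of a ubiquitin ligase, Mtr, the methionine synthase, and Trim30a, a member of the tripartite motif family. The fifth window, that of Gm30933, whose region also holds the opposed start of Snx19, a sorting nexin, was the only enclosed window that held the CTCF core motif. The sixth is that of Lig4, the DNA ligase of non-homologous end joining. The fifth and sixth were added after their values were seen. Sequences are from RefSeq (GRCm38.p6) and run 5′ to 3′ on the gene's strand, from 250 bases before to 50 bases after the start. Capitals mark the letters GGGCGG of SP1 and CCAAT of NFY on either strand, except in the fifth window, where they mark the CTCF core alone and 1 match to the SP1 letters is left in lower case.
Top2b, chr14:16364956-16365255, plus strand: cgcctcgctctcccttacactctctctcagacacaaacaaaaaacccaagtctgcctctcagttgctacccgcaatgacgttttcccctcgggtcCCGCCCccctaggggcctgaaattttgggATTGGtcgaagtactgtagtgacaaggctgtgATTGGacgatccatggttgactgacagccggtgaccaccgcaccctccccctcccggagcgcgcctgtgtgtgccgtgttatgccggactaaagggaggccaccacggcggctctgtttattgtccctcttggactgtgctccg
Kbtbd8, chr6:95117630-95117929, plus strand: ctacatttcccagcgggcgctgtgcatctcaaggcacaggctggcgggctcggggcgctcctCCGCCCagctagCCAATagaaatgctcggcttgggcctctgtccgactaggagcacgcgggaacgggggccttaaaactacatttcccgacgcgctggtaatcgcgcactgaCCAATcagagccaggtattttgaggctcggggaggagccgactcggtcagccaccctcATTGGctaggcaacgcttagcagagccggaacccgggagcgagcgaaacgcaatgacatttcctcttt
Mtr, chr13:12258064-12258363, minus strand: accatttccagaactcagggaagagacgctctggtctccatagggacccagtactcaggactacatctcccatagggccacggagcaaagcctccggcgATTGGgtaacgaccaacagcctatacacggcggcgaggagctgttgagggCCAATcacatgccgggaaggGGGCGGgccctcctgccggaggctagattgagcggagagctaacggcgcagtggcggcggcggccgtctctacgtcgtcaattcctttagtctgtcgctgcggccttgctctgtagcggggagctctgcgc
Trim30a, chr7:104465144-104465443, minus strand: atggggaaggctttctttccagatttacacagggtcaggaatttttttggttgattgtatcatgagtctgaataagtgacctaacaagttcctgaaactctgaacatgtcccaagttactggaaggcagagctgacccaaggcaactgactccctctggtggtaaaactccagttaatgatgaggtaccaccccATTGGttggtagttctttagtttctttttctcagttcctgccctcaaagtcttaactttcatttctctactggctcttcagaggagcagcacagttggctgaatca
Gm30933, chr9:30426929-30427228, minus strand: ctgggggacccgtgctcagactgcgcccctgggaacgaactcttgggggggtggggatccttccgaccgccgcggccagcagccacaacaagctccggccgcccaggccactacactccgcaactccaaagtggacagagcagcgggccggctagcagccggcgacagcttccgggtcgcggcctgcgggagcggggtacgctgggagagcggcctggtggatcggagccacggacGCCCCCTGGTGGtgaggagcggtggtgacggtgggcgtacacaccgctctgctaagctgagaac
Lig4, chr8:9976262-9976561, minus strand: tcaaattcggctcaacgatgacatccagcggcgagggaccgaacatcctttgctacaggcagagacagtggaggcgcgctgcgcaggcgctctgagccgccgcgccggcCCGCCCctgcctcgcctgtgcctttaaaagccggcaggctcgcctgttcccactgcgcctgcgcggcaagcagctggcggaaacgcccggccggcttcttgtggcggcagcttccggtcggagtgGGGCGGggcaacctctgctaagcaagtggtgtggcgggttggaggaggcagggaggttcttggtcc
Top2b, Kbtbd8 and Mtr windows each carried NFY letters 2 or 3 times and SP1 letters once. The Trim30a window had a GC content of 43.7%, against 58.3% for Top2b, and held the NFY letters once and no SP1 letters. The Lig4 window held SP1 letters 2 times and no NFY letters. Of all 523 promoter windows counted for the selected regions, 37.3% held NFY letters and 4 held the CTCF core.

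In size and score the selected regions were mid-ranking. Their median width was 380 bp, with quartiles of 320 and 474 bp and a range of 203 to 1325 bp. Regions listed at 0.5 and 1 but not 0.1 µM had a median width of 376 bp, those at 0.1 and 0.5 but not 1 µM 350 bp, and those at all doses 586 bp. Regions of a single list were narrower, with medians of 240 bp at 0.1 µM only, 239 bp at 0.5 µM only and 254 bp at 1 µM only. These widths span all list regions that were merged, so patterns of several lists are wider in part by construction. Within the 0.1 µM list alone, medians were 300 bp for the selected regions, 460 bp at all doses and 240 bp at 0.1 µM only. Within the 1 µM list alone, they were 313 bp for the selected regions, 491 bp at all doses and 254 bp at 1 µM only. A score is a whole number that the authors gave each region on a scale that is not stated. The selected regions had a median score of 10 (4 to 45) in the 0.1 µM list and 11 (4 to 57) in the 1 µM list. Their median percentile rank of score was 44.8 in the 0.1 µM list and 43.4 in the 1 µM list, against 72.3 and 74.1 for regions at all doses. The other patterns ranked lower. In the 0.1 µM list, regions at 0.1 and 0.5 µM had 30.7 and those at 0.1 µM only 22.8. In the 1 µM list, regions at 0.5 and 1 µM had 39.1 and those at 1 µM only 31.6. These values belong to the lists that chose the regions and are given as a description.

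Few of them reached the top of either list. Of the 2868, 16 stood in the top 10% of the 0.1 µM list (0.558%) and 12 in that of the 1 µM list (0.418%), whereas 1264 of the 6331 regions at all doses stood there at 0.1 µM and 1334 at 1 µM. Of the other patterns fewer still stood there: at 0.1 µM 0 of 390 at 0.1 and 0.5 µM and 1 of 2599 at 0.1 µM only, and at 1 µM 1 of 1014 at 0.5 and 1 µM and 0 of 3342 at 1 µM only. At the other end, 46 had a score of 5 or less in both lists. Nearly all, 2819, joined 1 region of each list. Another 24 joined 1 region of the 0.1 µM list with 2 of the 1 µM list, 24 joined 2 with 1, and 1 joined 2 with 2.

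The 20 with the best mean rank comprised 9 at gene ends, 3 inside genes and 8 between genes. The region at the start of Top2b (chr14:16364862-16365392) had scores of 29 at 0.1 µM and 57 at 1 µM, the highest score of any selected region in the 1 µM list. The region in Tmeff2, a transmembrane protein with follistatin-like domains (chr1:51065413-51066021), scored 39 at 0.1 µM and 40 at 1 µM. Both ranked at or above the percentile of 86.2 in both lists.

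Among the other gene-end regions of the 20, Oat, the mitochondrial ornithine aminotransferase, had one 594 bp inside its start (chr7:132575621-132575987) with scores of 24 at 0.1 µM and 53 at 1 µM. Mtr (chr13:12257918-12258433) had scores of 36 at 0.1 µM and 27 at 1 µM, and Decr1, a reductase of mitochondrial fatty acid oxidation (chr4:15944986-15945598), had 39 and 27. Canx, the calnexin chaperone of the endoplasmic reticulum (chr11:50325574-50326047), had scores of 27 at 0.1 µM and 37 at 1 µM. Usf3 (chr16:44172889-44173207) had 23 and 44, and Kbtbd8 (chr6:95117551-95118002) had 24 and 42. A gene-end region also lay beside Spaca6, a sperm membrane protein, with scores of 26 and 38. The higher score fell at 0.1 µM for some of these genes and at 1 µM for others, and with 1 list per dose the difference has no error.

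Regions far from protein-coding genes were also among the 20. One lay 271 kb from Epha7, an ephrin receptor, with scores of 35 at 0.1 µM and 38 at 1 µM. Another lay 178 kb from the nearest end of Tgfb2, a transforming growth factor ligand, with a score of 36 in both lists. A region 796 kb from Tmem182 had scores of 29 and 32. These names only give the nearest protein-coding gene; the nearest listed RefSeq start lay 37033 bp from the region near Tgfb2.

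**Figure D1:**
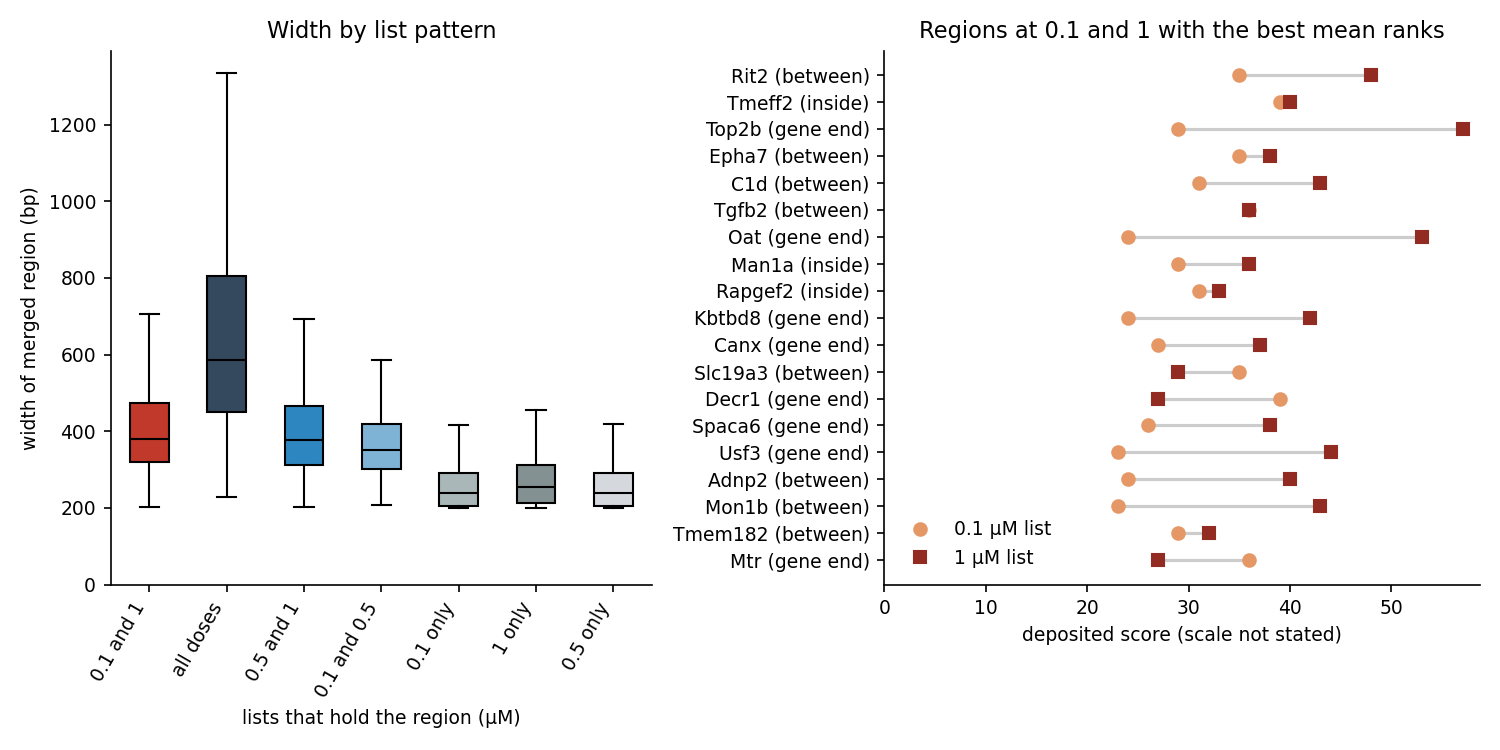
Left, width in bp of merged regions by the lists that hold them (box, quartiles; line, median; whiskers, the furthest values within 1.5 box lengths; further values not drawn); right, deposited scores in the 0.1 µM (circles) and 1 µM (squares) lists for 19 of the 20 selected regions with the best mean rank, named by the nearest or enclosing gene. The selected regions have a median width of 380 bp against 586 bp for regions at all doses, and the order of the 2 scores differs from region to region.

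The widest selected regions were not the best ranked. The widest, 1325 bp near Syce1l (chr8:113673930-113675254), had scores of 7 at 0.1 µM and 14 at 1 µM. A region of 1155 bp in Tagln2, the actin-binding transgelin 2 (chr1:172502726-172503880), had scores of 17 and 12. Among the 10 widest, the region of 1084 bp at the start of Lrig3 (chr10:125965764-125966847) had the best mean rank, with scores of 18 at 0.1 µM and 33 at 1 µM. Map3k7, the TAK1 kinase of inflammatory and TGF-beta signalling, had a region of 1117 bp at its start (chr4:31963577-31964693) with scores of 10 and 26.

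The selected regions lay at gene ends less often than regions at 0.5 and 1 µM and regions at all doses. Of the 2868, 640 (22.3%) had their midpoint within 1 kb of an end of a protein-coding gene, 1024 (35.7%) lay inside a gene and 1204 (42.0%) between genes. Regions listed at 0.5 and 1 but not 0.1 µM, which were about as wide, lay at gene ends in 38.0%. The difference, selected minus other, was −15.7 percentage points with a 95% Newcombe interval of −19.0 to −12.3 (Fisher's exact test, two-sided, adjusted p = 1.36e-20 over 10 comparisons). Against regions at all doses (39.1%) it was −16.8 points (−18.7 to −14.8, Fisher's exact test, adjusted p = 2.30e-57). Widths moved with this result. Among regions with a merged width of 250 to 500 bp, the difference from all doses was −4.00 points (adjusted p = 0.00354 by Fisher's exact test). The difference from 0.5 and 1 µM was −17.3 points (adjusted p = 5.33e-20 by Fisher's exact test). These tests take regions as units, which are not replicates of a dose, and all lists name the same untreated control. That the 0.5 µM list lies more at gene ends was known beforehand, and the rule leaves out its regions. The location differences here and below are not independent of that. Patterns without the 0.5 µM list lay at gene ends in 17.2% to 24.3%, and patterns with it in 26.2% to 39.1%.

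Between genes the order was turned round. The selected regions lay there in 42.0%, against 31.5% of regions at 0.5 and 1 µM, a difference of 10.5 points (7.09 to 13.8, Fisher's exact test, adjusted p = 7.97e-09). Regions at all doses lay between genes in 31.9%, a difference of 10.1 points (7.94 to 12.2, Fisher's exact test, adjusted p = 4.33e-20). At 250 to 500 bp this second difference was 2.21 points and did not pass (Fisher's exact test, adjusted p = 0.176). Regions at 0.5 µM only lay between genes in 36.3%, also not tested. The differences from the other patterns were 1.47 points against 0.1 and 0.5 µM (40.5%; −3.79 to 6.56, Fisher's exact test, adjusted p = 0.622), 3.26 points against 1 µM only (38.7%; 0.814 to 5.71, adjusted p = 0.0135) and −5.96 points against 0.1 µM only (47.9%; −8.59 to −3.32, adjusted p = 1.71e-05). With the 0.1 and 1 µM lists shortened by score, which changed the groups, 2 of these results moved. The difference was 8.23 points against 0.1 and 0.5 µM (adjusted p = 0.000232 by Fisher's exact test). Against 1 µM only it was 2.26 points and did not pass (adjusted p = 0.196 by Fisher's exact test). The other differences kept their direction and passed.

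Against the other patterns the result was mixed. Regions at 0.5 µM only lay at gene ends in 28.8% (exact 95% interval 26.3 to 31.3%), against 22.3% of the selected regions, a difference that was not tested. Regions at 0.1 and 0.5 but not 1 µM lay at gene ends in 26.2%, and the difference of −3.84 points had an interval of −8.65 to 0.561 (Fisher's exact test, adjusted p = 0.105). It passed at widths of 250 to 500 bp, at −5.81 points (adjusted p = 0.0267 by Fisher's exact test). Shortening the 0.1 and 1 µM lists to the length of the 0.5 µM list by score moved regions between patterns. The 0.1 and 0.5 µM group then held 785 regions instead of 390, with 32.5% at gene ends. Against this changed group the difference was −11.6 points (Fisher's exact test, adjusted p = 3.64e-09). Against regions at 1 µM only (24.3%) the difference was −2.01 points (−4.11 to 0.101, Fisher's exact test, adjusted p = 0.0780), and −5.48 points at 250 to 500 bp (adjusted p = 0.000176 by Fisher's exact test). Regions at 0.1 µM only lay at gene ends in 17.2%, which was 5.15 points below the selected regions (3.04 to 7.25, Fisher's exact test, adjusted p = 3.94e-06). That difference fell to 0.984 points at 250 to 500 bp and no longer passed (Fisher's exact test, adjusted p = 0.567), nor did it pass with lists shortened by score, at 2.64 points (adjusted p = 0.0624).

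**Figure D2:**
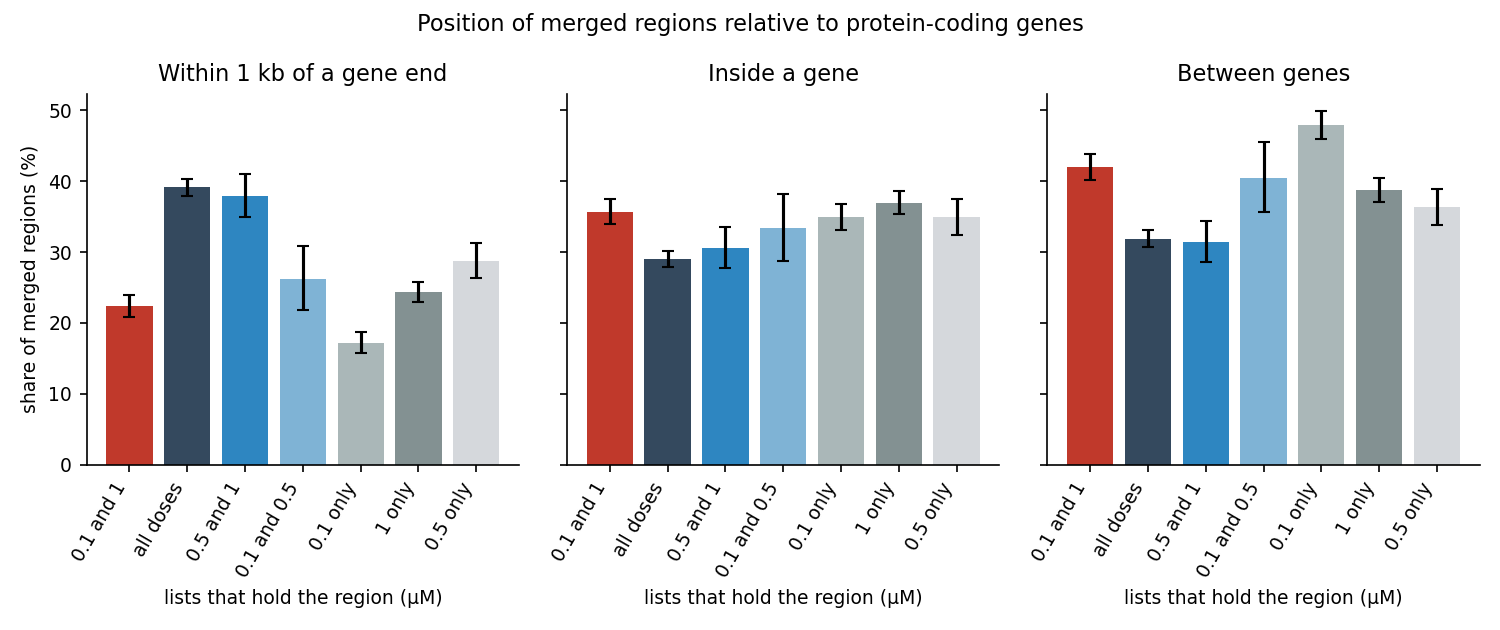
Share of merged regions (%) within 1 kb of a gene end, inside a gene and between genes, by the lists that hold them; error bars are exact 95% binomial intervals over regions. The selected regions (red) lie at gene ends in 22.3%, below the 38.0% of regions at 0.5 and 1 µM and the 39.1% of regions at all doses.

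Within the selected regions, position varied with width and little with rank. In 4 equal groups of rising width, 18.5%, 17.3%, 20.8% and 32.6% lay at gene ends, the last group spanning 474 to 1325 bp. In 4 equal groups of rising mean rank the shares were 25.1%, 21.6%, 21.6% and 20.9%. Those between genes had a median distance of 38.5 kb to the nearest protein-coding gene; 340 of the 1204 were more than 100 kb away and 72 more than 500 kb. The 1024 inside genes fell in 827 genes; whether they lie in exons or introns was not analysed here.

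At gene ends the selected regions mostly lay at starts. Of 509 at the end of a gene with a listed RefSeq start, 471 (92.5%) had their midpoint within 1 kb of a start. Counting every listed start, 626 of 2733 selected regions on chromosomes with start data lay that close (22.9%, exact 95% interval 21.3 to 24.5%), against 39.0% at 0.5 and 1 µM and 40.6% at all doses. Of the 626, 77.2% lay within 250 bp of the start and 57.2% had their midpoint upstream of it, with a median position of −22.5 bp. The corresponding upstream shares were 64.0% at 0.5 and 1 µM and 53.3% at all doses. The median positions were −39 bp at 0.5 and 1 µM and −10 bp at all doses, and 18 bp, downstream of the start, at 0.1 µM only.

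**Figure D3:**
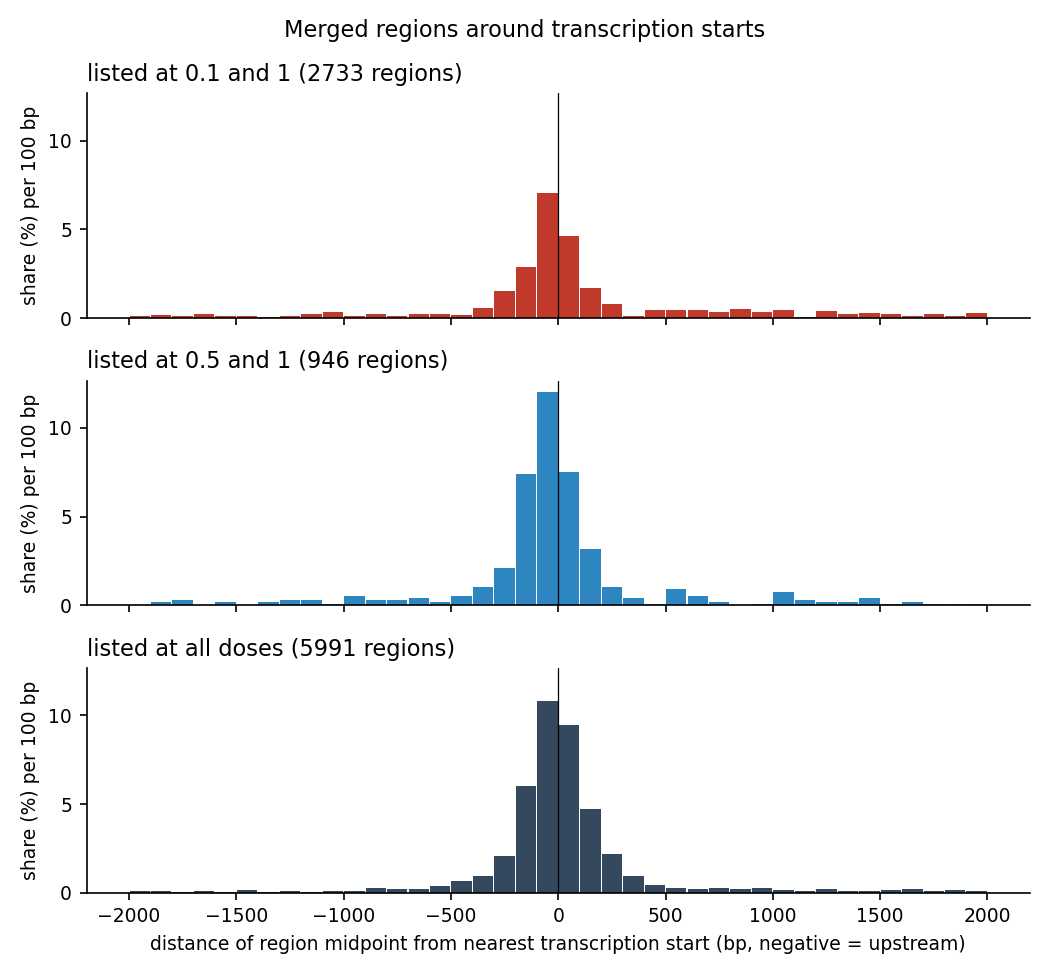
Distance in bp from the midpoint of a merged region to the nearest RefSeq transcription start (negative, upstream), as the share (%) of regions per 100 bp, for regions listed at 0.1 and 1 µM, at 0.5 and 1 µM, and at all doses. The selected regions peak at the start like the others, with 22.9% within 1 kb against 39.0% and 40.6%.

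The promoters that the selected regions touched were rich in GC and CpG. With 1 window of 300 bp counted per region, that of the nearest start, 523 selected regions touched one, and these windows had a GC content of 61.5 ± 9.53% (SD over windows) and an observed-to-expected CpG ratio of 0.739 ± 0.259. The 326 windows touched at 0.5 and 1 µM had 61.7% and 0.769, the 2308 touched at all doses had 61.1% and 0.756, and all 31650 distinct listed windows had 53.8% and 0.463. Promoter windows of both strands were touched by 83 of the 523 (15.9%), against 16.9% at 0.5 and 1 µM and 20.5% at all doses. Base composition of the selected promoters was thus close to that of the other touched promoters and above that of the whole table.

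Among the motif letters searched on both strands of these windows, NFY differed by the most percentage points from regions at 0.5 and 1 µM. NFY letters (CCAAT) were in 37.3% of the selected windows (exact 95% interval 33.1 to 41.6%), against 52.8% at 0.5 and 1 µM (47.2 to 58.3%), 47.8% at all doses (45.8 to 49.9%) and 37.6% of every listed promoter. The low share was found in other patterns too, with 41.1% at 0.1 and 0.5 µM, 37.6% at 0.1 µM only and 38.9% at 1 µM only, against 48.7% at 0.5 µM only. In windows that lay wholly inside a region the NFY shares were 35.3% of 190, 60.2% of 103 and 49.8% of 1706, in the same order of patterns. SP1 letters (GGGCGG) were in 65.4% of the selected windows (61.1 to 69.5%), 75.8% at 0.5 and 1 µM, 68.4% at all doses and 35.9% of every promoter. In windows wholly inside a region the SP1 order against all doses turned, with 71.1% of the selected windows and 70.5% at all doses. ETS letters (CCGGAAGT) were in 13.4% (10.6 to 16.6%), against 10.7%, 9.36% and 3.90%. The SP1 and ETS shares of the selected windows were above those of the whole table, and the NFY share was close to it.

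The shares of CTCF, AP-1 and NRF2 letters lay closer to those of the other touched promoters. The CTCF core was in 4 of the 523 selected windows (0.765%, interval 0.209 to 1.95%), against 0.920% at 0.5 and 1 µM, 0.737% at all doses and 0.57% of every promoter. Beside the Gm30933 window printed above, the windows were those of Serpinb6b, with scores of 10 at 0.1 µM and 15 at 1 µM, Gm20559, with 19 and 4, and Aqr, with 6 and 11. The AP-1 letters TGANTCA were in 5.74% of the selected windows, 6.13% at 0.5 and 1 µM, 5.94% at all doses and 7.85% of every promoter. The NRF2 element TGACNNNGC was in 15.5%, against 15.6%, 16.5% and 12.4%. The E-box CACGTG was in 11.5% and the NRF1 letters GCGCATGC in 5.35%, against 7.20% and 2.73% of every promoter. FOXA (TGTTTAC), CEBP (TTGCGCAA) and HNF4 (CAAAGTCCA) letters were in 3.44%, 0.574% and 0.191%. These shares are descriptions of letters in windows at starts, without a test, and do not cover the selected regions elsewhere; intervals cover counting error only.

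**Figure D4:**
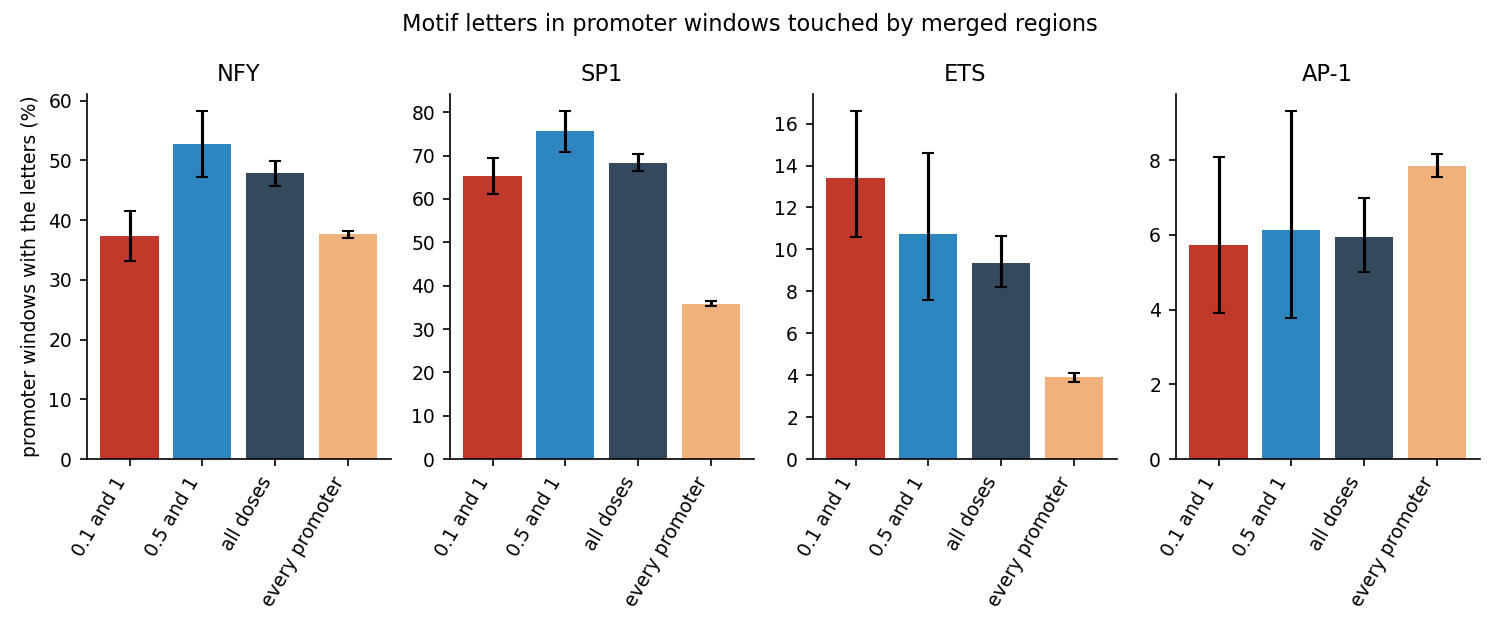
Share (%) of 300-bp promoter windows that hold the letters of NFY, SP1, ETS and AP-1, for windows touched by regions listed at 0.1 and 1 µM, at 0.5 and 1 µM and at all doses, and for every listed promoter; error bars are exact 95% binomial intervals and each panel has its own scale. NFY letters are in 37.3% of the selected windows against 52.8% at 0.5 and 1 µM.

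Counted by gene, 747 of 20851 protein-coding genes off chromosome 15 (3.58%) had a selected region touching the 1 kb window around an end. A region that touched the windows of several genes was counted for each of them. An all-dose region touched an end of 13.8% of genes, and a region of any pattern of 26.4%. Of the 747 genes, 120 (16.1%) also had a 0.5 µM region at an end, and 483 (64.7%) had no 0.5 µM region in the gene or within 10 kb. With that wider window, 2026 of 20851 genes (9.72%) had a selected region. The gene groups below were picked with earlier results of these data known, so their counts are descriptions to be read against 3.58% and against the all-dose share.

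The ubiquitin, proteasome and protein-folding group had the most such genes, 8 of 49 measured (16.3%), against 13 of 49 with an all-dose region at an end. Of the 49, 28 (57.1%) had a region of any pattern at an end, against 26.4% of all protein-coding genes. They included Ube2d3, a ubiquitin-conjugating enzyme (chr3:135439125-135439516, scores 17 at 0.1 µM and 16 at 1 µM). Hspa8, the constitutive HSC70 chaperone, had a region of 873 bp at its end (chr9:40800690-40801562, scores 11 and 7), and Uba2, a subunit of the SUMO-activating enzyme, had one of 243 bp (chr7:34168320-34168562, scores 12 and 9). Psmb1 and Psmb2, core subunits of the proteasome, the deubiquitinase Usp9x and the chaperone Hsph1 were also among them. For Ube2d3 and Hsph1 a 0.5 µM region also lay in the gene or within 10 kb.

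Signalling genes of the TGF-beta, Hippo and Wnt pathways came next, with 7 of 48 (14.6%), against 14 with an all-dose region. Regions of any pattern stood at an end of 23 of the 48 (47.9%), also above the 26.4% of all genes. Yap1, the Hippo pathway co-activator, had a region at its start (chr9:8004573-8004929) with scores of 10 at 0.1 µM and 9 at 1 µM. Tead4, a DNA-binding partner of YAP, had one at an end (chr6:128300444-128301003) with 15 and 18, and Amotl2, an angiomotin that binds YAP, one at its start (chr9:102717457-102717965) with 28 and 10, which had a 0.5 µM region 286 bp away. The Wnt receptor Fzd5 (chr1:64737481-64738230) had 7 and 24, and the co-receptor Lrp6 had 5 and 11. The TGF-beta receptor Tgfbr2 had 14 and 8, with a 0.5 µM region 391 bp away, and the inhibitor Smad7 had 8 and 15, with one 102 bp away.

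Of all groups listed here, that of glycolysis and pyruvate dehydrogenase genes alone had more genes at selected than at all-dose regions. The counts were 4 of 33 (12.1%) and 3 of 33 (9.09%), and 14 of 33 (42.4%) had a region of any pattern at an end. Hk2, hexokinase 2, had scores of 12 at 0.1 µM and 17 at 1 µM (chr6:82774358-82774740). A 0.5 µM region also lay in Hk2 or within 10 kb. Gapdh, the glyceraldehyde-3-phosphate dehydrogenase, had 2 selected regions, at its start (chr6:125165506-125165883, scores 8 and 9) and at its other end (chr6:125161287-125161661, scores 14 and 9). Pgk1, the phosphoglycerate kinase, had 14 and 6, with a 0.5 µM region 652 bp away, and Pdha1, a subunit of pyruvate dehydrogenase, had 15 and 5. The difference between 4 and 3 genes was not tested.

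Groups tied to responses to metals, oxidants and DNA damage had 1 or 2 genes each with a selected region at an end, from 2.44% of DNA repair genes to 8.33% of metal genes, around the 3.58% of all genes. In the NRF2 antioxidant group only Prdx3, a mitochondrial peroxiredoxin, did (1 of 30, scores 10 at 0.1 µM and 19 at 1 µM), 478 bp from a 0.5 µM region, against 6 of 30 at all doses. In the metal group they were Mtf1, the metal-responsive transcription factor (scores 9 and 9), and Atp7a, a copper transporter (7 and 15), 2 of 24 against 11. Mtf1 also had a 0.5 µM region at an end. The p53 and DNA damage group had Trp53inp1 (1 of 31; scores 10 and 21) and DNA repair had Lig4 (1 of 41, against 20 at all doses). The Lig4 region (chr8:9976083-9976691) had scores of 29 at 0.1 µM and 19 at 1 µM, and the nearest 0.5 µM region was 154246 bp away. Immediate early genes had Btg2 (18 and 11) and Klf6 (8 and 24), 2 of 27 (7.41%), and the aryl hydrocarbon receptor and xenobiotic group had Abcb1b, a drug efflux pump (15 and 16), 1 of 28.

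Cell cycle genes had 4 of 55, against 21 at all doses. Ccnb1, cyclin B1, had a region at its start (chr13:100786462-100786792) with scores of 22 at 0.1 µM and 15 at 1 µM, and Cdc25a, a phosphatase that activates cyclin-dependent kinases, had 11 and 27 (chr9:109875222-109875718). Ccne1, cyclin E1, had 5 and 20, and the replication factor Cdc45 had 7 and 7. The Cdc45 region had its midpoint nearest to an end of another gene, Ufd1, 35 bp away. None of these 4 genes had a 0.5 µM region in the gene or within 10 kb, which held for 64.7% of the 747 genes above.

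The chromatin groups had shares of 1.96% to 5.13%, also around the 3.58% of all genes. The remodellers Chd7 (scores 4 at 0.1 µM and 7 at 1 µM) and Chd9 (12 and 8, with a 0.5 µM region 117 bp away) made 2 of 39, the histone demethylase Kdm3a (14 and 8) 1 of 51, and the cohesin subunit Smc1a (21 and 8) 1 of 25 in the CTCF, cohesin and condensin group. Adhesion and cytoskeleton genes had Cdh2, Zyx and Rac1 (3 of 46, 6.52%), with a 0.5 µM region 291 bp from that of Cdh2 and 333 bp from that of Zyx. Lipid synthesis had Elovl5 (1 of 37), with a 0.5 µM region 6229 bp away. Ribosomal protein genes had 0 of 30 and Hox genes 0 of 30; at unknown depth, and without a list of untreated cells, an absence here does not show closed chromatin.

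Among hepatocyte genes, Foxa1, a pioneer factor of liver (scores 11 at 0.1 µM and 8 at 1 µM), and Onecut2 (8 and 15) had a selected region at an end, 2 of 41. The Foxa1 region (chr12:57546462-57547051) had its midpoint nearest to an end of another gene, Ttc6, 53 bp away. A region of any pattern stood at an end of 8 of 41 hepatocyte genes, against 0 of 22 immune, 1 of 22 neuronal and 1 of 22 stromal and endothelial markers. The share of hepatocyte genes, 19.5%, was below the 26.4% of all protein-coding genes.

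Some long genes held several selected regions. Aopep, an aminopeptidase gene of 361 kb that overlaps Fancc, had 7, of 12 merged regions in it or within 10 kb. They ran from its start (chr13:62964752-62965132, scores 4 at 0.1 µM and 5 at 1 µM) to the region over Fancc (chr13:63304450-63304867, scores 8 and 5), and all lay at least 6055 bp from a 0.5 µM region. Sgms1, a sphingomyelin synthase, had 6 of 16, and Tenm2, a teneurin adhesion protein, had 6 of 12 in a gene of 1230 kb. Nrp2, a neuropilin co-receptor for semaphorins and VEGF, had 5 of 11, the best ranked at chr1:62747471-62748364 with scores of 22 and 20. Plcb1, Chd9, Mast4 and Zfp608 had 5 each, and Cpe and Dlgap1 4 each; 24 genes had 4 or more and 321 had 2 or more. Length was not taken into account in these counts, and several of these genes are long.

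The rule keeps the selected regions off the 0.5 µM list, and their distances to it varied widely. The nearest 0.5 µM region was at a median distance of 38.4 kb, with quartiles of 8.17 and 122 kb, and 780 of 2868 (27.2%) had one within 10 kb. No distance of another pattern was set beside these, so they do not show a trait of the selected regions. Just inside the rule lay a region in Ipo8 (chr6:148830737-148831108), 5 bp from a 0.5 µM region, with scores of 4 at 0.1 µM and 7 at 1 µM. A region near 1700010B08Rik lay 34 bp away (9 and 15) and one in Pank1, a pantothenate kinase, 46 bp away (12 and 16). Just outside it lay a region near Dtx4 (chr19:12517922-12518407) that a 0.5 µM region touched over 7 bp, and which scored 8, 7 and 12 at 0.1, 0.5 and 1 µM. Regions near Olfm5 (31 bp shared; 6, 7 and 5) and in Wdr95 (34 bp shared; 10, 5 and 14) followed. Scores on both sides of the rule overlapped.

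The selected regions farthest from the 0.5 µM list lay where it was sparse. A region near Tgif2lx1 on chromosome X (chrX:118557081-118557631) was 5371340 bp from a 0.5 µM region and had scores of 21 at 0.1 µM and 23 at 1 µM. One near Slitrk1 (chr14:108877961-108878331) was 2865472 bp away, with 32 and 15, and the Kbtbd8 promoter 2688750 bp away. The number of selected regions also moved with list length, and the lists held 14401 regions at 0.1 µM, 11130 at 0.5 µM and 15894 at 1 µM. With both longer lists shortened to 11130 regions, 1530 selected regions were left by score and 1498 by width. With only regions of score 10 or more at 0.1 and 1 µM, 995 were left. The part of list length in the pattern was not tested further. The 1 µM list carries the library prefix N503 and the others N502, which the labels do not explain; at 1 µM the prefix and the dose cannot be told apart.

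Across chromosomes the selected regions took from 12.3% of merged regions on chromosome 17 (exact 95% interval 10.5 to 14.3%) to 23.3% on chromosome X (18.8 to 28.4%). Chromosomes 12 (22.3%), 6 (20.7%) and 9 (20.3%) were also above the 16.0% of all. By length the order differed, with 1.67 selected regions per Mb on chromosome 1 and 0.450 on chromosome X, where the all-dose regions were also thinnest at 0.554 per Mb. Neighbouring selected regions were a median of 319.9 kb apart, and 182 of 2849 neighbouring pairs lay within 10 kb.

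**Figure D5:**
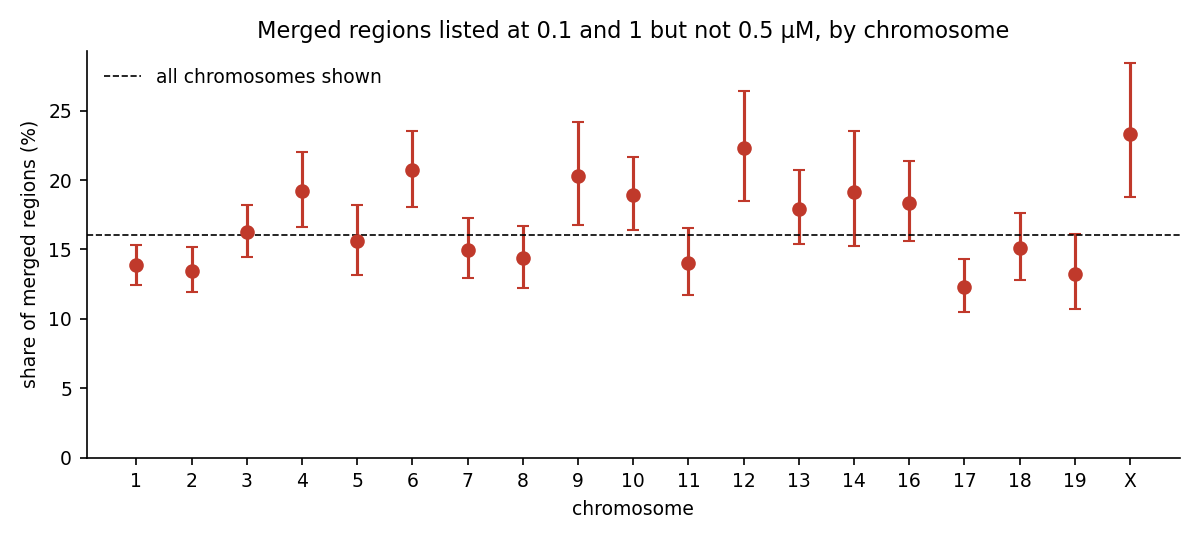
Share (%) of the merged regions of each chromosome that were listed at 0.1 and 1 but not 0.5 µM; points are shares, bars are exact 95% binomial intervals over regions, and the dashed line is the 16.0% of all chromosomes shown. Shares run from 12.3% on chromosome 17 to 23.3% on chromosome X.

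Of 970 listed microRNA hairpins, 8 lay within 1 kb of a selected region and 3 overlapped one. Their mature sequences from RefSeq (GRCm38.p6) show seeds, bases 2 to 8 in capitals, that differ from one another.
miR-206-3p, in Mir206, a muscle microRNA: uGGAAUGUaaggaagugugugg
miR-5130, in Mir5130: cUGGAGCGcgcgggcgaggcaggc
miR-1945, in Mir1945: uCUUCGCGgguacugucgggac
The region over Mir206 (chr1:20678849-20679130) had scores of 7 at 0.1 µM and 5 at 1 µM, and a second one 648 bp from the hairpin (chr1:20678092-20678362) had 8 and 27. Mir5130 lay in a region at the end of Kctd12 (chr14:102981991-102982721, scores 9 and 9), 84 bp from a 0.5 µM region. Mir1945 lay in one at the end of Gspt1, a translation termination factor (chr16:11254037-11254551, scores 12 and 14). Hairpins of Mirlet7i, 465 bp from a selected region, and Mir30a, 462 bp away, were among the others.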

How the data were processed

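ATAC-seq libraries of 8 Hepa-1c1c7 samples gave 3 region lists. Bowtie2, Picard, MACS2 and mm10 are named, per the submitters' processing notes, with no version or role; for the threshold, the use of the control, pooling, the Tn5 read shift and duplicate removal, a statement was not given in the sources used here. Each list covers one treated dose. The authors deposited, for each region, a position and a score whose scale is not stated; it was used only to describe and rank regions within a list. Depth is unknown, so no value could be weighed by it. The numbering of the 0.5 µM list skips 342 names, and 109 selected regions (3.80%) lie where the 0.5 µM list skips one.

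The members and gene lists were chosen with earlier results of these data known. That the 0.5 µM list lies more at gene ends was among those results, and the location differences are not independent of it. Regions overlapping by at least 1 bp were merged; positions are 1-based mm10, compared with RefSeq genes of GRCm38.p6, its NCBI counterpart. Starts and 31683 promoter windows were matched for 16851 of 20851 protein-coding genes (80.8%); chromosome 18 had none. Fisher's exact test was applied to location shares, with Benjamini-Hochberg adjustment (threshold 0.05), with Newcombe intervals for differences and Clopper-Pearson intervals for shares; the procedure was tested on simulated data. The planned tests of motifs and GC content were not run, since no genome was used here; motifs were described in promoter windows. Members per Mb use the span from the first to the last merged region. Named were the 20 best-ranked and 10 widest members, the 10 genes with most members, list genes with a member at an end, and the 3 members nearest and farthest from the 0.5 µM list with the 3 regions least overlapping it. A few of the regions this names are not reported here. Python 3.11.15, pandas 2.3.3, numpy 2.4.6, scipy 1.17.1 and matplotlib 3.10.9 were used.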

Additional observations from a re-analysis of the deposited data

How the results depend on the processing

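Leaving out a library was not possible, since each list covers a dose. No paired analysis was possible because the lists carry no replicate numbers. Shortening the 0.1 and 1 µM lists to the length of the 0.5 µM list left 1530 selected regions by score and 1498 by width, and a minimum score of 10 left 995, against 2868. Merging across 100 bp or 500 bp, 50% reciprocal overlap, and leaving out regions where the 0.5 µM list skips a name (added after the data were seen) gave 2817, 2674, 2447 and 2759. Of 40 alternative location differences, 32 kept their direction and side of the threshold, 5 newly passed, 3 no longer passed and 0 changed direction. At gene ends, selected minus other, widths of 250 to 500 bp gave −5.81 points against 0.1 and 0.5 µM, 0.984 against 0.1 µM only and −5.48 against 1 µM only. Lists shortened by score gave −11.6 points against 0.1 and 0.5 µM and 2.64 against 0.1 µM only (Fisher's exact test, adjusted p = 0.0624). Shortening also changed the groups compared, with 785 regions at 0.1 and 0.5 µM instead of 390. Starts alone gave −5.21 points against 0.1 and 0.5 µM (adjusted p = 0.0277 by Fisher's exact test) and −3.75 against 1 µM only (adjusted p = 0.00112 by Fisher's exact test). Between genes, widths of 250 to 500 bp gave 2.21 points against all doses. Not counted among the 40, lists shortened by score gave 8.23 points between genes against 0.1 and 0.5 µM (adjusted p = 0.000232 by Fisher's exact test). Against 1 µM only they gave 2.26 points, which did not pass (adjusted p = 0.196 by Fisher's exact test). The cause was not tested. With the gene body and 10 kb as the window, 2026 genes held a selected region, against 747. Promoter windows wholly inside a region, also added after the data were seen, kept the NFY order and turned the SP1 order against all doses (71.1% of the selected windows, 70.5% at all doses); motif and GC alternatives that need a genome were not run.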
